A study of Synthetic plasmid and Mus musculus with 4 samples.

Results

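B102 is a target site of the B class in a reporter library that was assayed in mouse cerebral cortex and mouse retina. From knowledge of the study, B stands for sites open to DNase in brain, but the tables give only the letter. The fragments described here are all constructs whose target is B102, which are 44 of the 45670 constructs in the library and 1 of its 3483 targets. The site was chosen by its RNA to DNA ratio in cortex, under the label of a site of moderate activity, and no fragment of it was left out. Its level in cortex is therefore given as a description, and nothing is read from the calls of RNA above DNA in cortex printed with it.

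Each construct of the library carried 1 captured fragment of C57BL/6J genomic DNA and 1 transcribed barcode. The cortex group was 3 CD-1 mice injected stereotactically, at 4 to 6 weeks of age, with adeno-associated virus (AAV) carrying the constructs. Their GFP-positive cortex was dissected 4 to 5 weeks later, and each animal was 1 replicate. The retina group was 3 sets of 5 CD-1 retinas, electroporated ex vivo on postnatal day 0 and kept in culture for 8 days. RNA and DNA barcodes were counted in every replicate, with 3999412 to 10769648 counts per cortex library and 6501061 to 12147398 per retina library. The tissues also differed in age, delivery and sequencing lane, which cannot be told apart from tissue here. Only reporter barcodes were counted, so the tissues could not be checked against marker genes. Both tissues were bulk samples, in which fewer expressing cells and less RNA per cell cannot be told apart.

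Cis-regulatory elements are stretches of DNA bound by transcription factors that raise or lower transcription of a gene nearby. Open chromatin, which DNase cuts readily, marks many of them, and brain has many that are open in some of its cell types only. A massively parallel reporter assay reads such activity from the amount of barcode RNA made per copy of barcode DNA. Fragments that tile a site with shifted ends show which stretch of it has to be present for a reporter to be transcribed.

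The overlaps listed for the 44 fragments all fit a 300-base window at chr4:147735086-147735385 (mm9). The genes around it were not analysed here. Positions below are counted from base 1 at the window's first base, with negative numbers and 0 for bases before it. Fragments are numbered 1 to 44 by their start, and the start side of the window is the side with lower coordinates. Together they spanned 1017 bases, from chromosome 4 position 147734739 to 147735755 (bases -346 to 670). Lengths ran from 308 to 642 bases with a median of 473.5, near the 464 of all constructs. The whole window was held by 22 fragments, 16 lacked bases on its start side and 6 lacked bases on its end side. In orientation, 23 fragments were forward and 21 reverse as the table gives the strand. How that strand relates to the direction of the reporter is not given in the sources used here.

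A fragment was read only through its barcode, so its barcode is the sequence that was counted. The barcodes of the 6 fragments with the highest mean cortex activity are printed first, those of the 4 lowest next, and last that of a fragment whose DNA counts stood apart. They are in lower case, with no part in capitals because the tags are arbitrary.
Fragment 27 (chr4:147735064-147735594, forward): cgccaaatcatatat
Fragment 15 (chr4:147734948-147735418, reverse): catagagatgcgtcg
Fragment 11 (chr4:147734926-147735369, forward): ccctcccattcctgc
Fragment 20 (chr4:147735004-147735363, forward): ccctagacaaaactc
Fragment 18 (chr4:147734974-147735429, reverse): tacgatacgaacccg
Fragment 4 (chr4:147734858-147735389, forward): gaaccattctccact
Fragment 3 (chr4:147734833-147735296, forward): gccgcgcacattgtc
Fragment 5 (chr4:147734859-147735283, reverse): actgtctattaagag
Fragment 43 (chr4:147735226-147735755, reverse): aataacaaccggatc
Fragment 40 (chr4:147735187-147735600, reverse): ggctgcctgccccgt
Fragment 26 (chr4:147735061-147735445, forward): gggggggtggggttg
All 6 high fragments started before the window, and none lacked more than 22 of its bases. Each of the 4 low fragments lacked 89 to 140 bases, fragments 3 and 5 on the end side and fragments 40 and 43 on the start side. The order at the low end also depends on DNA counts, since 2 counts at the average library size were added to RNA and DNA. Fragments 8 and 42 had no RNA and 75 and 98 summed DNA counts. Their means were still above that of fragment 3, which had 205 RNA counts in animal 1.

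At least 10 DNA counts in each cortex DNA library were found for 37 of the 44 fragments, and values below are for those 37 unless said otherwise. Just inside this limit lay fragment 10 with 11, 27 and 25 DNA counts in animals 1, 2 and 3 and fragment 26 with 14, 10 and 239. Just outside it lay fragment 21 with 7, 22 and 16 and fragment 7 with 5, 29 and 28. The other 5 outside it, fragments 1, 14, 30, 36 and 38, had 1 to 5 counts in their lowest library. Fragment 7 had 4, 0 and 1072 RNA counts, and fragment 21 had 181, 0 and 0. These 7 fragments are not interpreted further.

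The site as a whole was transcribed above its DNA level in all 3 cortex animals. The ratio of its RNA share to its DNA share, where 1 means equal shares of both libraries, was 3.41, 3.42 and 3.14, or 3.32 ± 0.16 (SD, n = 3). These ratios rest on 43020 RNA and 15822 DNA counts. In the fit over all targets its log2 RNA/DNA was 2.13 (SE 0.18), against a median of -0.09 over 2108 targets. B102 ranked 33rd of those targets and 31st of the 461 B targets. It thus stood near the top of all targets, which goes against the label of moderate activity, while the highest B sites were far above it. Of all cortex targets, 2.99% were called higher in RNA, and nothing is read from B102 being among them. Without fragments 4 and 11, the pair with most RNA, the ratio was 2.36 ± 0.25 and the fitted log2 was 1.63.

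The level of the site hid a wide range among its fragments. Mean log2 RNA/DNA per fragment, with 2 counts added at the average library size, ran from -4.74 to 3.42 with a median of -0.31 and an SD of 2.56 over the 37 fragments. The median over all 38826 cortex constructs that passed the DNA minimum was -2.80. RNA was seen in all 3 animals for 20 of the 37 fragments, where 32.7% of all constructs had it, and in no animal for 4 fragments, where 12.5% of all constructs lacked it. An RNA share above the DNA share in all 3 animals was found for 9 fragments, against 3.27% of all constructs. These counts come from the readout that led to the choice of the site.

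Fragments 11 and 4 gave the most RNA. Fragment 11, forward and lacking 16 bases on the end side, had 2652, 2805 and 4207 RNA counts against 249, 687 and 477 DNA counts. Fragment 4, forward and holding the whole window, had 1688, 2014 and 3181 RNA counts against 169, 664 and 401. Both were far above their DNA share in every animal, with log2 values of 3.41, 3.06 and 2.88 for fragment 11 and 3.31, 2.63 and 2.72 for fragment 4. They were the only 2 of the 37 called higher by edgeR over all constructs, where 0.665% were called, with a fitted log2 of 3.55 (SE 0.46) and 3.33 (SE 0.57). Without the replicate block 6 were called higher and 4 lower, where 486 and 6420 of all 38826 constructs were. DESeq2 called 9 higher and 9 lower, where 1085 and 18087 of all constructs were. The site was chosen by this same cortex readout, so nothing is read from these calls. Together, fragments 11 and 4 gave 49.0%, 38.7% and 34.0% of the site's RNA in the 3 animals.

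Other fragments reached the same height on fewer counts. Fragment 27, which starts 22 bases before the window, had the highest mean log2 of 3.42 ± 0.33 (SD, n = 3) from 258, 913 and 1075 RNA and 26, 199 and 62 DNA counts. Fragment 15, in reverse orientation, had 859, 498 and 493 RNA counts against 44, 101 and 99, and a mean log2 of 3.19 ± 1.11. High values were thus present in both orientations. Fragment 20, of only 360 bases, had 385, 186 and 419 RNA counts against 17, 79 and 56, and reached 3.08 ± 1.17. Fragment 18, in reverse orientation, had 374, 478 and 1302 against 47, 151 and 97, and reached 3.03 ± 0.40. These 4 means differed by less than the spread between animals of fragments 15 and 20. Fragments 16, 24 and 12 followed with 2.32 ± 0.37, 1.98 ± 0.66 and 1.56 ± 0.50, and also exceeded their DNA share in all 3 animals.

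The 9 fragments above their DNA share in every animal had in common bases -21 to 278, a stretch of 300 bases at chr4:147735064-147735363. Of the 37 fragments, 20 contained this stretch. Among these 20, the RNA share was above the DNA share in 3 animals for 9, in 2 animals for 7, in 1 animal for 4 and in no animal for 0. The 17 fragments that did not contain it were above in 2 animals for 3, in 1 animal for 6 and in no animal for 8. The stretch was drawn from these same values, so the split is a description. Every one of the 37 fragments contained bases 145 to 178, the 34 bases at chr4:147735230-147735263, so these bases alone did not separate high from low fragments.

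Fragments that held the whole window were transcribed above their DNA level as a group. The 19 of them had a pooled ratio of 4.63, 4.30 and 4.38 in the 3 animals (4.44 ± 0.18, SD, n = 3), and a median log2 of 0.83 with a range from -3.77 to 3.42. None of the 19 lacked RNA in all animals, where 12.5% of all constructs did. Fragment 6, which holds the whole window, was the lowest of the 19 with 0, 0 and 259 RNA counts against 76, 177 and 141 DNA counts. Fragment 19 had 0, 0 and 1000 RNA counts against 32, 109 and 58, so that its RNA came from a lone animal. Fragment 2, the longest with 642 bases, had 79, 5 and 461 RNA counts and a mean log2 of 0.83 ± 3.35. Holding the window therefore did not give RNA in every animal for each barcode. Fragment 13 had 152, 0 and 409 RNA counts against 18, 75 and 63 DNA counts, and fragment 23 had 269, 68 and 944 against 81, 252 and 198. Both were above their DNA share in animals 1 and 3 and below it in animal 2. Fragment 22 had 1, 352 and 80 RNA counts against 13, 49 and 67, and fragment 28 had 11, 315 and 55 against 68, 237 and 299. Those 2 were above it in animal 2 only.

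Loss of bases on the start side went with lower values. The 13 fragments lacking 13 to 144 bases there had a pooled ratio of 0.47, 1.55 and 0.93 (0.98 ± 0.54, SD, n = 3) and a median log2 of -2.51. None of the 13 was above its DNA share in all 3 animals, near the 3.27% of all constructs, so nothing is read from that count. Above it in no animal were 6 of the 13, and the share of all constructs for this was not computed. The whole-window ratio was higher than the ratio of the 13 in each animal, without overlap between the 2 groups of values. Fragments 29 and 31, lacking 13 and 19 bases, had 133, 0 and 185 and 2, 10 and 714 RNA counts, each with high RNA in at least 1 animal. From 45 missing bases on, the ratio of the 11 fragments together was 0.36, 1.63 and 0.63.

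Among these 11 fragments the values were not uniform. Fragments 32 and 33 start at the same base, lack 45 bases and are both reverse. Fragment 32 had 83, 0 and 29 RNA counts against 144, 301 and 310 DNA counts, while fragment 33 had 3, 437 and 38 against 227, 385 and 374. Fragment 34, lacking 50 bases, had 30, 1177 and 570 RNA counts against 140, 492 and 334, and fragment 35, lacking 52, had 29, 270 and 94 against 52, 155 and 96. All of fragments 33, 34 and 35 were above their DNA share in animal 2, and none of them in animal 1. Fragment 37, lacking 64 bases, had 35, 2 and 0 RNA counts.

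With 98 or more bases missing on the start side, RNA was mostly low. Fragment 39 had 10, 184 and 261 RNA counts against 173, 618 and 493 DNA counts, below its DNA share in every animal. Fragments 40 and 42 had 0 RNA counts in all 3 animals, fragment 41 had 0, 1 and 62, and fragment 43 had 0, 6 and 22. Fragment 44 went the other way. It is the shortest fragment with 308 bases, starts at base 145, keeps 156 bases of the window and had 181, 0 and 524 RNA counts against 53, 152 and 94 DNA counts. Its ratio was 3.41, 0 and 4.66, so it was above its DNA share in animals 1 and 3.

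On the end side the number of missing bases separated high from low fragments. Fragments 11 and 20, lacking 16 and 22 bases, were among the highest of all and had a pooled ratio of 11.4, 7.99 and 7.26 in the 3 animals. Fragments 3, 5 and 8, lacking 89 to 122 bases, had a pooled ratio of 1.29, 0 and 0. Fragment 3 had 205, 0 and 0 RNA counts against 116, 335 and 146 DNA counts, and fragments 5 and 8 had none in any animal. No fragment lacked between 22 and 89 bases on this side, so the position of the change within that stretch could not be read.

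For the 4 fragments without RNA in any animal (5, 8, 40 and 42), the pooled count of 0 allows a ratio of up to 0.0229 to 0.0483, taking 3 counts over the 3 RNA libraries. This limit covers counting error only, since reads without molecular identifiers are not independent molecules.

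Put together by the number of window bases lost on either side, 23 fragments lacked at most 30 bases and had a ratio of 5.89, 4.78 and 4.91 (5.19 ± 0.61, SD, n = 3). The 14 fragments that lacked more had 0.48, 1.41 and 0.57 (0.82 ± 0.51). All 9 fragments above their DNA share in every animal were in the first group, and all 8 that were above it in no animal were in the second. This limit of 30 bases was set after the values were seen, so no test is given. Across the 37 fragments, mean log2 RNA/DNA and the number of window bases held had a Spearman rho of 0.65, where all points share the same 6 libraries.

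The split planned for all targets, whole window against any missing base, gave a smaller difference. Summed counts put the 19 whole-window fragments above the 18 others by a log2 of 0.91 (SE 0.25), which did not pass over 1612 targets (edgeR quasi-likelihood test, adjusted p = 0.318). The 18 others include fragment 11, which lacks 16 bases and gave 9664 RNA counts. When the construct with most RNA was left out of each target, the difference at B102 was 2.05 and passed (edgeR adjusted p = 0.0368). At B102 this took out fragment 11, picked by its RNA from the partial side, which by itself raises the difference. Nothing is therefore read from that call. Only 0.372% of all targets were called for this split in either direction. The 2 sides were also split apart, which was decided after seeing the data, and neither difference passed. Against the 13 fragments lacking start-side bases alone the log2 difference was 2.33 (SE 0.41, edgeR adjusted p = 0.11), and against the 5 lacking end-side bases it was -0.41 (SE 0.34, edgeR adjusted p = 0.716).

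Read along the site, the contrast in median log2 between fragments with and without a base, taken every 25 bases, was largest at base 75, with 0.24 against -3.97. The difference of 4.21 there was nearly matched by 4.20 at base 100 and 4.00 at bases 225 to 275. Only 6, 5 and 3 fragments lacked these bases, so base 75 does not stand out from them. The low medians rest on fragments 41 and 42 and, at bases 225 to 275, on fragment 3. Each of these had 0 RNA counts in at least 1 animal, where the log2 depends on the added counts and on the DNA count. At base 75 (position 147735160), the 31 fragments covering it had a pooled ratio of 3.88 ± 0.23 and the 6 not covering it 0.50 ± 0.22 (SD, n = 3). At base 0, just before the window, 24 covering fragments had 4.84 ± 0.54 and 13 not covering had 0.98 ± 0.54. At base 225 (position 147735310), 34 covering fragments had 3.48 ± 0.19 and 3 not covering had 0.43 ± 0.74. On pooled ratios the order was the opposite at the window's last base, where the 32 covering fragments had 2.84 ± 0.25 and the 5 not covering it, fragment 11 among them, had 5.98 ± 1.43. At base 350, the 23 fragments that covered it had 1.71 ± 0.42 and the 14 that ended before it had 5.96 ± 0.60. Fragments reaching far to the right mostly start late, so coverage at the 2 ends of the site is not independent.

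Orientation separated the fragments little. The 18 forward fragments had a ratio of 4.48, 3.54 and 3.63, and the 19 reverse fragments 2.32, 3.27 and 2.57. Forward was thus higher in 3 of 3 animals, and the 2 ranges did not overlap. Median log2 per fragment went the other way, with -0.31 for forward and 0.20 for reverse. The log2 difference in the fit was 0.52 (SE 0.25) and did not pass over 1601 targets, of which 0.0625% were called (edgeR adjusted p = 0.512). The forward excess rested on fragments 4 and 11. Without them, the other 16 forward fragments had 1.89 ± 0.35, and without the construct with most RNA in each target the log2 difference was 0.08. Among whole-window fragments the order was the opposite, with 4.12 ± 0.28 for 9 forward and 4.80 ± 0.07 for 10 reverse (SD, n = 3).

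No length difference passed the test. The 22 fragments of at least 464 bases had 3.55 ± 0.30 and the 15 shorter ones 3.08 ± 0.31 (SD, n = 3). The log2 difference of 0.21 (SE 0.22) did not pass over 1645 targets, of which 0.182% were called (edgeR adjusted p = 0.747). It was 1.17 without the construct with most RNA in each target and 1.51 in limma on construct means, where it did not pass either. The median log2 was 0.30 for the longer and -1.95 for the shorter fragments. Length and mean log2 had a Spearman rho of 0.30 over the 37 fragments and of -0.07 over the 19 that held the whole window. Mean log2 was nearly unrelated to a fragment's summed DNA count (rho 0.03 over 37 fragments), to the reads that linked barcode and fragment (rho 0.09) and, at rho -0.19, only weakly related to the GC content of the barcode.

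Near-identical fragments gave the spread between barcodes on almost the same sequence. Over 52 pairs that shared at least 90% of the longer fragment, the absolute difference in mean log2 had a median of 1.44 and reached 4.02. Over 135 pairs that shared less than 50%, the median was 3.72. Same-strand pairs of the closest kind differed by a median of 1.47 (25 pairs) and opposite-strand pairs by 1.40 (27 pairs). Fragments recur in many pairs, so the pairs are not independent. The closest pair, fragments 9 and 10, shares 494 bases on the reverse strand, and had 145, 43 and 733 RNA counts against 0, 529 and 376. Fragments 34 and 35, in opposite orientation and sharing 474 bases, differed by a log2 of 0.03. Fragments 15 and 17, which share 453 bases and both hold the whole window, differed by 3.89, since fragment 17 had only 8, 103 and 126 RNA counts.

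The order of the fragments was less alike between animals in RNA counts than in DNA counts. Over the 37 fragments, DNA counts of 2 animals had a Spearman rho of 0.81 to 0.86 and RNA counts one of 0.41 to 0.57. Log2 RNA/DNA had 0.30 for animals 1 and 2, 0.49 for 1 and 3 and 0.44 for 2 and 3. Over all cortex constructs this last rho ranged from 0.10 to 0.15. The median SD of a fragment over the 3 animals was a log2 of 1.70, against 2.29 for all constructs. Of the 37 fragments, 9 had no RNA in some animal and over 100 counts in another, which is 24.3%, near the 26.7% of all constructs. Fragment 25 was such a case, with 0, 906 and 1307 RNA counts from 126, 248 and 197 DNA counts. The summed site varied far less, with a ratio of 3.32 ± 0.16.

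In retina, most B102 fragments gave no RNA. At least 10 DNA counts in each retina DNA library were found for 32 of the 44 fragments, and 30 passed in both tissues. Of these 32, 26 had no RNA count in any replicate (81.2%, against 64.3% of all retina constructs), and none had RNA in all 3 (against 5.99%). The remaining 12 of the 44 had no RNA either. Taking 3 counts in each library, a count of 0 allows 4.19e-05%, 4.27e-05% and 2.88e-05% of the RNA of retina replicates 1, 2 and 3. Taking 3 counts over the 3 RNA libraries together, the limit for the 26 fragments is a pooled ratio of 0.00128 to 0.0524.

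The retina RNA of the site came from 6 fragments and, for the larger part, from replicate 3. Fragment 11, also among the highest in cortex, had 89, 0 and 2243 RNA counts against 594, 765 and 1106 DNA counts. Fragment 39, below its DNA share in every cortex animal, had 0, 0 and 1047 against 377, 278 and 651. Fragment 18 had 0, 283 and 1 RNA counts, fragment 43 had 0, 0 and 39, fragment 34 had 4, 0 and 0, and fragment 22 had 3, 0 and 0. Only fragments 11, 39 and 18 exceeded their DNA share in any retina replicate, each in 1 replicate, with ratios of 2.14, 1.70 and 3.74. No fragment exceeded it in all 3, as 3.39% of all constructs did. Those 3 fragments also had no RNA in some replicate and over 100 counts in another, as 10.8% of all retina constructs did. Fragment 4, with 1644, 523 and 666 retina DNA counts, had no retina RNA.

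For the site as a whole, the retina ratio over the 32 fragments was 0.019, 0.049 and 0.469 (0.179 ± 0.252, SD, n = 3), below 1 in every replicate. The fitted log2 RNA/DNA was -0.36 (SE 1.10). Its 0 is a level fixed by the scaling factors and not that of equal shares, and the median of 2031 targets was -1.96. The site did not pass (edgeR adjusted p = 0.867), while 8.81% of all targets were called higher. With total library size as the scaling it was -3.86 (edgeR adjusted p = 0.0163). Without replicate 1 it was 0.79, and without replicate 3 it was -1.52, neither of them called. Without the 2 B102 fragments with most RNA it was -3.35, below the median target of the main fit, and was not called. No B102 fragment was called higher in retina, where 2.33% of all constructs were (edgeR, 0 of 32). At an unadjusted p under 0.05 the number was also 0, and DESeq2 called 0 higher. In the other direction, edgeR called lower the 26 of 32 fragments without RNA, where 23374 of all 36005 constructs were called lower. With any replicate left out, 0 B102 fragments were called lower.

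The DNA of the fragments was much alike in both tissues. Summed DNA counts in cortex and retina had a Spearman rho of 0.94 over the 44 fragments, while cortex DNA and the reads linking barcode and fragment had 0.35. Fragment 26 was an exception, with 14, 10 and 239 cortex DNA counts and 75, 9 and 0 in retina. Its cortex RNA counts were 19, 0 and 482, so that its ratio was 1.36, 0 and 1.69. Whether its barcode, a run of mostly G printed above, has a part in this was not tested.

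B701 and B880, B sites with 89 and 28 constructs, ranked 8th and 2nd of the 2108 cortex targets. They were taken for comparison with earlier results of these data known, so their higher cortex activity is a description. Their ratios were 13.0 ± 1.01 and 33.1 ± 5.60 (SD, n = 3), so the 3 sites did not overlap in any animal. The share of constructs above their DNA share in all 3 animals was 24.3% at B102, 56.4% at B701 and 77.3% at B880. Spread among constructs was of similar size, with an SD of mean log2 of 2.56, 3.36 and 2.77. In retina the ratios were 0.179 ± 0.252, 0.187 ± 0.188 and 0.058 ± 0.065, which differ by less than the spread between replicates. The difference between whole-window and partial fragments was 0.91 at B102, 1.20 at B701 (SE 0.17, edgeR adjusted p = 0.0474) and -0.48 at B880 (SE 0.28, adjusted p = 0.655). Whether these differences differ between sites was not tested.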

How the data were processed

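The authors deposited raw barcode counts for 3 RNA and 3 DNA libraries per tissue, per the file headers, and, for constructs with at least 10 counts in each DNA library, log2 of the RNA to DNA ratio of library fractions plus 0.001. These log2 values, deposited by the authors, were recomputed from the counts within 5e-10. The table of fragments and their read counts, deposited by the authors as 2 identical copies, was used once; starts count from 0 there and from 1 here. The submitters' processing notes name Bowtie2 2.1.0, SAMtools 0.1.19, bedtools 2.22.1, FastQC and mm9, with no roles.

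RNA was compared with DNA by edgeR 4.0.16 in R 4.3.3 (quasi-likelihood, robust, trimmed mean of M values, Benjamini-Hochberg over all features, threshold 0.05), with the replicate as a block, since the labels say that each replicate's tissue gave both its RNA and its DNA. The values alone do not show this pairing: deviations of such RNA and DNA libraries from their group means had correlations of -0.0203 to 0.0131. Target counts were sums over at least 5 constructs. Splits needed 3 constructs per side and had each library as a block. They measure the spread over animals, not over barcodes. Ratios use total library counts. SEs came from the fold change and F statistic. The scripts were tested on simulated data. Alternatives were other scalings, DESeq2 1.42.0, limma 3.58.1, other minimums, no block, and leaving out a replicate or the top construct.

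The members and lists were chosen with earlier results of these data known. Named were the 6 highest and 4 lowest fragments in cortex, those called higher, the longest, shortest and most truncated. Further fragments were named after their values were seen. Python 3.11.15, numpy 2.4.6, pandas 2.3.3 and scipy 1.17.1 were used for the rest.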

Additional observations from a re-analysis of the deposited data

Results flagged for a closer look

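Taken on library shares, B102 lay on opposite sides of its DNA level in the tissues. Its RNA share was above its DNA share in 3 of 3 cortex animals and below it in 3 of 3 retina replicates, and the mean log2 of this ratio was higher in cortex by 5.47. The gap depends on the scaling: with trimmed-mean factors the fitted log2 was 2.13 in cortex and -0.36 in retina. In retina B102 thus lay above the median target at -1.96. Without the 2 B102 fragments with most RNA, the fitted log2 in retina was -3.35, below that median. The difference between the tissues was not tested, since the site was chosen for its cortex activity and tissue was tied to delivery, age and lane. The same held for 7 fragments, which were above their DNA share in 3 of 3 cortex animals and in 0 of 3 retina replicates, out of 9 above it in every cortex animal that passed the DNA minimum in both tissues. Fragments 11 and 18 were the 2 exceptions. In retina, 29 of the 32 fragments that passed were above their DNA share in 0 replicates. The share of all retina constructs for this was not computed. No RNA in any retina replicate was seen for 26 of the 32, against 64.3% of all constructs. In cortex, 3.27% of all constructs were above their DNA share in all 3 animals. The share of all constructs above it in 3 of 3 cortex animals and in 0 of 3 retina replicates was not computed, and nothing is read from the 7.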

How the results depend on the processing

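The count of B102 fragments called higher in cortex was 2 in the edgeR fit and stayed at 2 with each replicate left out. It was 6 without the replicate block and 9 in DESeq2. Over all 38826 constructs, the counts called higher in these fits were 258, 486 and 1085. Without the block 4 B102 fragments were also called lower, and in DESeq2 9 were. The cause of the change in count was not tested. The site's fitted log2 in cortex stayed above 0 in all 12 alternatives. As the site was chosen for its cortex activity, nothing is read from that sign or from the counts called in cortex. In retina its log2 of -0.36 was -3.86 with total library size, 0.96 without the replicate block and 0.027 with limma on construct means, and ran from -1.52 to 0.79 with a replicate left out, with 0.07 without replicate 2. Without the 2 B102 fragments with most RNA, an alternative that was not planned, the retina log2 was -3.35. That is below the median target of the main fit at -1.96. Of these alternatives, only total library size made the retina log2 a call. The difference between whole-window and partial fragments, 0.91, was 2.05 and called without the construct with most RNA in each target. At B102 that construct was fragment 11 of the partial side, so nothing is read from the call. Against fragments lacking end-side bases only, an alternative chosen after seeing the data, the difference was -0.41. The strand and length differences kept their sign and were not called in any alternative. With 10 to 687 DNA counts per fragment and cortex library, and RNA present in some animals only, values of single fragments were far less certain than that of the site.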
